A study of Mus musculus with 6 samples.

Results

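The genes described here code for the nuclear-encoded machinery of oxidative phosphorylation. They were taken from the deposited count table by gene symbol alone, as every protein-coding row whose symbol names a subunit of complexes I to V, cytochrome c1 or cytochrome c. The rule gave 90 genes of the 14774 in the table, 11733 of which were protein-coding. By known role, 7 were core and 29 accessory subunits of complex I, 4 were subunits of complex II, 9 of complex III, 15 of complex IV and 17 of complex V, and 1 was cytochrome c. The remaining 8 were Ndufaf genes, which match the symbol pattern but code for assembly factors of complex I and not for subunits. Ndufa4 and Ndufa4l2 were counted with complex IV, where NDUFA4 is now known to reside. MA-10, a tumor Leydig cell line of the mouse, was sequenced in 3 libraries of untreated wild-type cells, and STARKO1 in 3 libraries of untreated cells. STARKO1 is a line grown from a single MA-10 cell after CRISPR/Cas9 targeting of Star, and is therefore 1 clone. It carries a frameshift deletion in that gene. Both lines thus share the tumor background, and a difference between them cannot be told apart from a difference between a clone and its parent population.

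In the inner mitochondrial membrane, complexes I and II pass electrons to ubiquinone, complex III passes them to cytochrome c, and complex IV passes them to oxygen. Complexes I, III and IV pump protons, and complex V, the ATP synthase, uses the gradient to make ATP. All complexes but complex II join subunits coded in the nucleus with subunits coded in the mitochondrial genome. In Leydig cells the inner membrane also houses the first step of steroid synthesis, and STAR moves cholesterol toward it.

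Total counts were between 14114351 and 19530062 per library, and levels are given in CPM, a gene's count divided by its library's depth after TMM scaling in edgeR. The floor of 3 counts was worth 0.264 CPM or less in the MA-10 and 0.177 CPM or less in the STARKO1 libraries. Star was at 60.9, 109 and 61.4 CPM in MA-10 replicates 1, 2 and 3 and at 2.06, 2.71 and 2.02 CPM in the STARKO1 replicates. This was a log2 fold change of -5.09 ± 0.331 (SE; edgeR's quasi-likelihood test, adjusted p = 0.00121). All 7 Leydig cell markers were measured, and besides Star, Hsd3b1, a steroid dehydrogenase, was called lower (27.8, 37.2 and 24.3 CPM in MA-10, 5.12, 5.72 and 4.72 CPM in STARKO1 cells, edgeR adjusted p = 0.00268). The markers did not all run this way, though edgeR called 0 higher. Of the 7, 4 were lower in STARKO1 without overlap and 2 were higher, where 21.0% of all genes tested were lower and 21.5% higher without overlap. The 2 higher markers were Cyp17a1 (2.12, 6.24 and 2.38 CPM against 6.28, 10.5 and 8.93 CPM) and Nr5a1 (571, 452 and 392 CPM against 608, 638 and 652 CPM). Of 18 genes listed as markers of other testis cells 8 were in the table, and 2 were called. Of these 8, only 1 of the 2 macrophage and 1 of the 2 peritubular and fibroblast genes were tested. Of all genes tested, edgeR called 4.74% lower and 4.3% higher. Pdgfra, a receptor gene listed here under peritubular cells and fibroblasts, was lower in STARKO1 (5.90, 2.78 and 6.69 CPM against 0, 0.118 and 0.0562 CPM, edgeR adjusted p = 0.00595). Whether it is particular to those cells was not tested. None of the 8 was above 20.2 CPM except Cdh5, an endothelial cadherin, at 26.1 to 41.3 CPM in MA-10 and 117 to 123 CPM in STARKO1 cells, where it was called higher (edgeR adjusted p = 0.00596). MA-10 replicates 2 and 3 stood apart from the other 4 libraries. The 7SL RNA of the signal recognition particle took 14.4% and 6.63% of their counts, against 1.81% in MA-10 replicate 1 and 1.82% to 2.37% in STARKO1. Ribosomal protein genes took 8.66% and 7.82%, against 4.62% and 4.24% to 4.43%.

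The oxidative phosphorylation genes divided the libraries in the same way. Together they took 1.30% of the counts in MA-10 replicate 1, 3.22% in replicate 2 and 2.66% in replicate 3, and 1.40%, 1.39% and 1.38% in the 3 STARKO1 replicates. Their summed level was 11273, 49245 and 33062 CPM in the MA-10 replicates and 11763, 11863 and 11776 CPM in the STARKO1 replicates. MA-10 replicate 1 thus lay just below the STARKO1 libraries, while the other two MA-10 replicates lay far above them. In bulk RNA, a smaller share of cells with a transcript and less of it per cell cannot be told apart.

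The pattern held gene by gene. Of the 89 genes that passed the filter on low counts, 73 were higher in both MA-10 replicates 2 and 3 than in every other library, and MA-10 replicate 2 was the highest of the 6 libraries for 76. MA-10 replicate 1 lay below the lowest STARKO1 library for 46, above the highest for 26 and within their range for 17. The median gene was 3.95 times as high in MA-10 replicate 2 as in replicate 1, and 2.46 times as high in replicate 3, where the corresponding medians over all genes tested were 0.971 and 0.981. The fold of replicate 2 over replicate 1 ran from 0.649 to 24.3. Within STARKO1 the same genes were steady, with a median coefficient of variation of 3.81% (6.46% over all genes), against 60.0% within MA-10 (30.0% over all genes). The 7SL and ribosomal protein shares were high in the same MA-10 replicates, and their part in the fold changes was not tested.

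**Figure D1:**
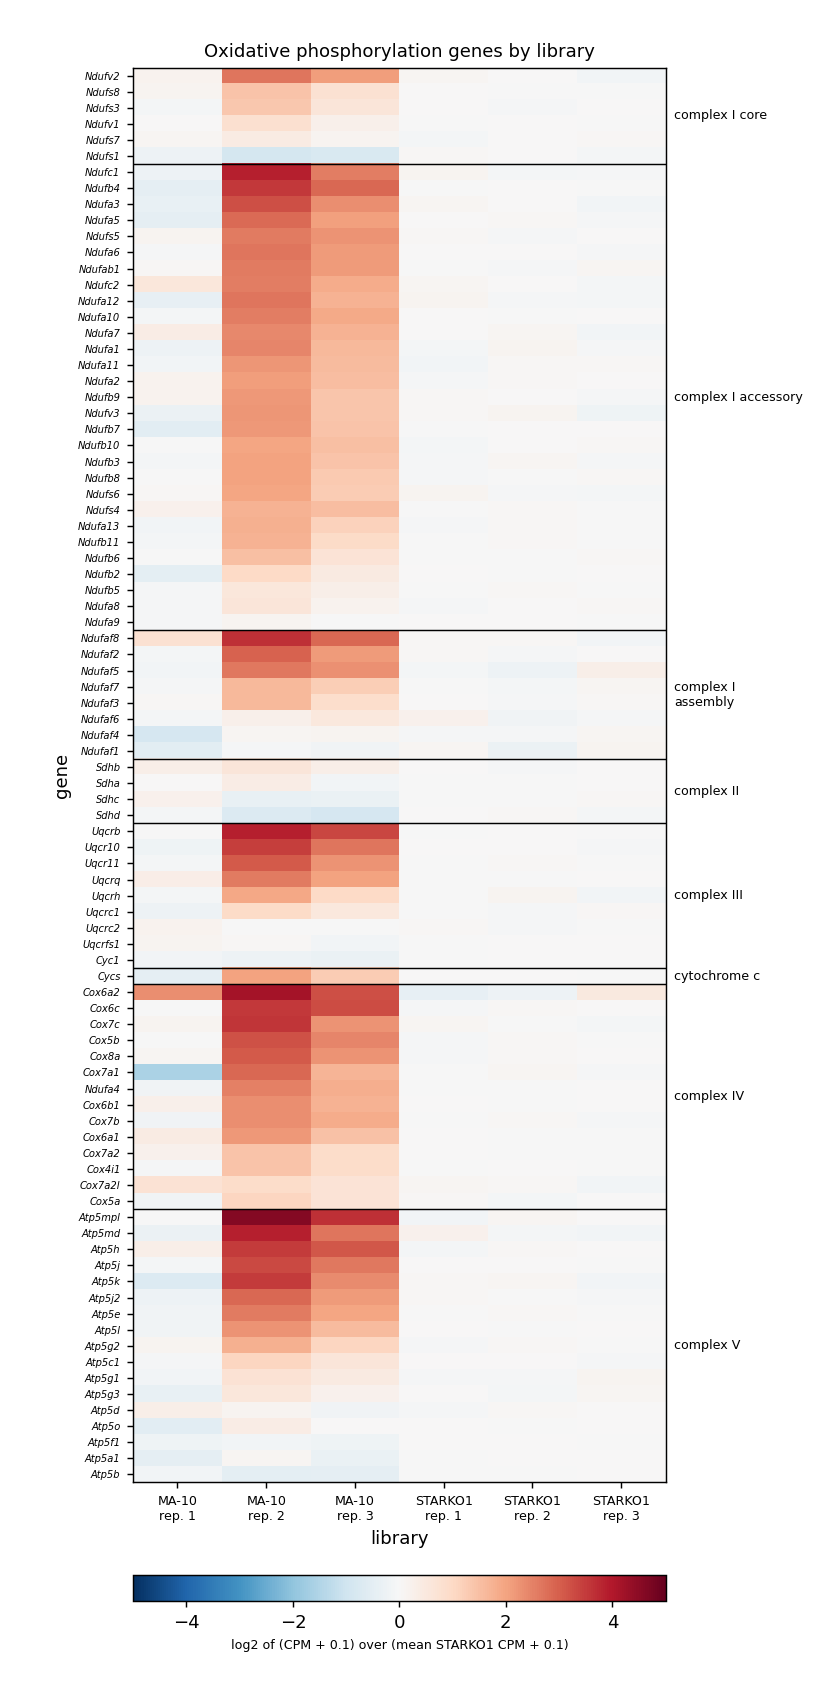
Level of 88 of the 89 tested genes (rows, by complex and then by fold change) in each of the 6 libraries (columns), as the log2 of its CPM over the mean of the 3 STARKO1 libraries, with a pseudocount of 0.1 CPM and colors saturating at the ends of the bar. MA-10 replicates 2 and 3 are red for most rows of complexes I, III, IV and V, MA-10 replicate 1 is close to white, and complex II shows little color in any library.

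Over all 6 libraries, 3 of the 89 genes were lower in STARKO1 cells and 0 were higher, with a gene called where the p of edgeR's quasi-likelihood test, adjusted by Benjamini-Hochberg over 11939 genes, was under 0.05. The 3 were Cox7a2l, Cox6a2 and Ndufaf8. They make up 3.37% of the genes tested here, where 4.74% of all genes were called lower and 4.3% higher, so the share called was not above the background. The fitted log2 fold changes (STARKO1 over MA-10) were nonetheless mostly negative: 78 of 89 were below 0, with a median of -1.35 against -0.05 over all genes tested. At an unadjusted p under 0.05, 59 genes were lower and 1 was higher, where 22.7% of all genes were lower and 15.0% higher. The libraries of the cell lines did not overlap for 21 genes that were lower in STARKO1 (23.6%, background 21.0%) and 5 that were higher (5.62%, background 21.5%), and they overlapped for 63.

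The counts depended on the libraries and the test. With DESeq2, 50 genes were lower and 1, Ndufs1, was higher, where 17.4% of all genes were called lower and 11.0% higher. Without MA-10 replicate 1, edgeR called 69 genes lower and 6 higher, against 31.7% lower and 34.0% higher over all genes. The median log2 fold change was then -1.65. Without MA-10 replicate 2, 1 gene was lower and 0 higher, where 2.28% of all genes were lower and 1.91% higher, and the median was -0.80. At an unadjusted p under 0.05, 24 genes were then lower and 1 was higher. Leaving out MA-10 replicate 3 or any STARKO1 replicate left 0 genes called in either direction, with medians between -1.38 and -1.24. Few genes were called in these fits: 0.763% of all genes were lower without MA-10 replicate 3, and 0.32%, 0.566% and 0.376% without STARKO1 replicates 1, 2 and 3. At an unadjusted p under 0.05, 28 to 31 of the oxidative phosphorylation genes were lower and 0 higher (31.5% to 34.8% lower), where 11.5% to 14.7% of all genes were lower. With MA-10 replicate 1 as the only wild-type library, assumed to vary like the STARKO1 libraries, 14 genes were lower and 20 were higher. Of all genes, 20.6% were then called lower and 19.9% higher, and the median log2 fold change of the oxidative phosphorylation genes was 0.08. The direction of the group as a whole therefore differed between MA-10 libraries.

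**Figure D2:**
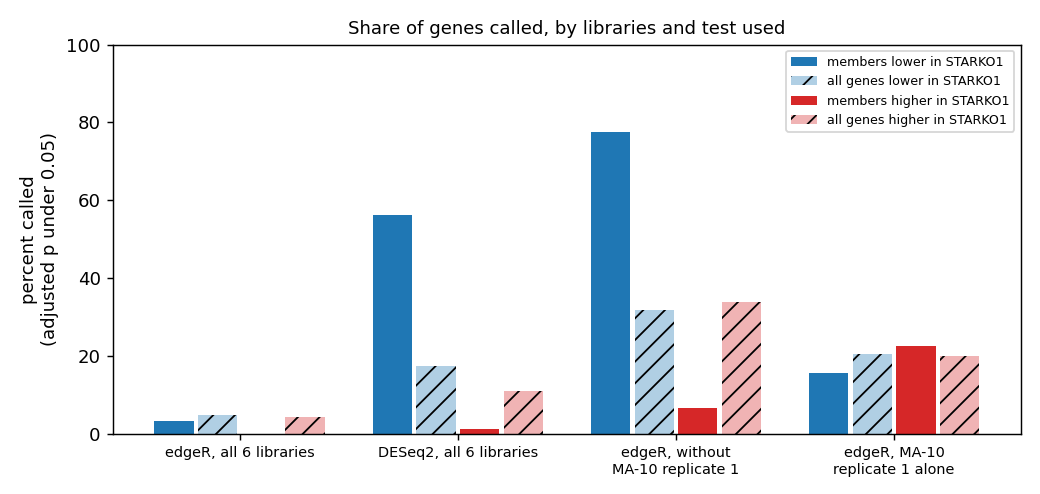
Percent of genes called at an adjusted p under 0.05 (y axis, from 0) in 4 fits (x axis), with solid bars for the oxidative phosphorylation genes, hatched bars for all genes tested, blue for lower and red for higher in STARKO1. The solid blue bar is below its hatched neighbor with all 6 libraries under edgeR, above it under DESeq2 and without MA-10 replicate 1, and again below it with MA-10 replicate 1 alone. The last fit takes its spread from the STARKO1 libraries alone, so its calls do not measure the spread of MA-10.

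Complex I takes electrons from NADH. Its 7 core subunits in the nuclear genome carry the flavin and the iron-sulfur clusters, and the accessory subunits surround them. None of the 36 was called in either direction over all libraries by edgeR. At an unadjusted p under 0.05, 27 were lower and 1 was higher, and DESeq2 called 22 lower and 1 higher. Of all genes, 22.7% were lower and 15.0% higher at an unadjusted p under 0.05, and DESeq2 called 17.4% lower and 11.0% higher. The same shares stand beside the counts of the complexes and lists below. All 29 accessory subunits had a fold change below 0, with a median of -1.45, while the core subunits had a median of -0.38 and ranged from -1.96 for Ndufv2 to 0.61 for Ndufs1. The median transcript length was 763 nt for the accessory and 1623 nt for the core subunits. With a smooth trend of counts on length removed per library, their medians were -0.77 and -0.15. With MA-10 replicate 1 alone they were 0.08 and -0.002. Ndufc2, an accessory membrane subunit, had the smallest p of the complex. It was at 113, 449 and 277 CPM in the MA-10 replicates and at 82.0, 76.5 and 70.6 CPM in the STARKO1 replicates. Every MA-10 library was above every STARKO1 library, with a log2 fold change of -1.87 ± 0.464 (SE, edgeR adjusted p = 0.0524). With MA-10 replicate 1 alone the log2 fold change was -0.57. Ndufa7, also an accessory subunit, was at 30.0, 124 and 77.3 CPM in MA-10 and at 24.0, 25.2 and 21.0 CPM in STARKO1 cells (log2 fold change -1.72 ± 0.470, edgeR adjusted p = 0.0623).

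Accessory subunits differed among themselves in size of change. Ndufb9 was at 598, 2359 and 1353 CPM in MA-10 and 502 to 539 CPM in STARKO1 cells, so that all MA-10 libraries were higher, replicate 1 by little. Ndufa9 was at 83.6, 95.2 and 85.2 CPM against 88.7, 88.0 and 85.3 CPM, and was thus nearly level across all 6 libraries. Ndufs1, the largest subunit of the complex, was named after its values were seen because it had the highest fold change. It was at 183, 119 and 130 CPM in MA-10 and 228, 226 and 207 CPM in STARKO1 cells, where every library was higher than every MA-10 library (log2 fold change 0.61 ± 0.211, edgeR adjusted p = 0.0906, DESeq2 adjusted p = 0.0307). Its gene overlaps Eef1b2, an elongation factor gene, on the opposite strand, and whether the counting used strand is not given in the sources used here.

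Reads of similar copies limit the values of single genes. In 67 of the 90 genes (74.4%) an estimated count was not whole to within 0.001 in at least 1 library, against 43.8% of all genes in the table, as happens where reads are divided among features. Ndufb4 was at 69.2, 1088 and 682 CPM in MA-10 and 92.7, 95.7 and 94.0 CPM in STARKO1 cells. Its processed pseudogene Ndufb4c, which is outside the rule, was at 90.5, 74.8 and 70.0 CPM and at 111, 112 and 111 CPM. Per length, Ndufb4c took 76.5%, 14.6% and 20.4% of the pair in the MA-10 replicates and 74.5% to 74.9% in the STARKO1 replicates. Thus Ndufb4 was far higher in MA-10 replicates 2 and 3 than in replicate 1 and Ndufb4c was not, and how reads were divided between them was not tested. Of the 90 genes, 26 overlap another gene of the table, 22 of them only on the opposite strand.

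Of the 8 complex I assembly factors, edgeR called Ndufaf8 alone. DESeq2 called 4 lower, and 5 were lower and 0 higher at an unadjusted p under 0.05. NDUFAF8 is required together with NDUFAF5 for complex I assembly. Ndufaf8 lies at chr11:120098928-120100706 on the plus strand (mm10). It was at 14.3, 104 and 61.6 CPM in MA-10 and at 8.60, 8.66 and 7.64 CPM in STARKO1 cells. All 3 MA-10 libraries were above all 3 STARKO1 libraries, replicate 1 by far less than the others. The log2 fold change was -2.85 ± 0.653 (SE, edgeR adjusted p = 0.0446) over all libraries and -0.78 with MA-10 replicate 1 alone. Without MA-10 replicate 1 the adjusted p was 1.5e-05, and it was 0.0921 without MA-10 replicate 2, 0.147 without MA-10 replicate 3 and 0.169 to 0.191 without each STARKO1 replicate in turn. Ndufaf5, its partner, was at 9.91, 67.6 and 53.1 CPM in MA-10 and 10.02, 9.14 and 13.3 CPM in STARKO1 cells (log2 fold change -2.00, edgeR adjusted p = 0.0790), where MA-10 replicate 1 lay among the STARKO1 libraries. Ndufaf1 and Ndufaf4 had fold changes above 0 (0.24 and 0.14, neither called).

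The bases before the transcription start of these genes were searched for the letters of 4 regulators' binding motifs on both strands. These were GCGCATGCG for NRF1, CCGGAAG for the ETS factor GABPA, AAGATGGCG for YY1 and GGGCGG for SP1. The windows were the 250 bases before RefSeq starts (build GRCm38.p6), and 73 of the 90 genes had at least 1, in 78 windows. The NRF1 string occurred in 10.3% of these windows, against 1.45% of all 32851 windows of the same length. The ETS string was in 17.9% against 6.91%, the YY1 string in 1.28% against 0.606%, and the SP1 string in 35.9% against 32.7%. The NRF1 string nearly equals its own reverse complement, so 1 occurrence can count on both strands. Median fold changes (log2) were the same with and without the NRF1 string (-1.38 for 8 and -1.38 for 65 genes), and were -1.52 with and -1.33 without the ETS string (14 and 59 genes). A match is a description of letters and not of binding. The windows shown are those of 2 genes called lower, Ndufaf8 and Cox7a2l, of Cox6a1, which holds 3 of the motifs, and of Atp5h, whose levels per length were among the highest when the means of both cell lines were averaged. Capitals mark the motif letters found, in either orientation. The windows lie at chr11:120098684-120098933 (plus strand) for Ndufaf8, chr17:83514334-83514583 (minus strand) for Cox7a2l, chr5:115348959-115349208 (minus strand) for Cox6a1 and chr11:115419920-115420169 (minus strand) for Atp5h.
Ndufaf8: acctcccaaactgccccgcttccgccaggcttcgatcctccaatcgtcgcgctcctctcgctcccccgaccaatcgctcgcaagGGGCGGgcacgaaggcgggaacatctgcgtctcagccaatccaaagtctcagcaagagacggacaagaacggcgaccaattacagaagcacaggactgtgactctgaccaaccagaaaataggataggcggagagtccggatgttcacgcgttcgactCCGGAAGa
Cox7a2l: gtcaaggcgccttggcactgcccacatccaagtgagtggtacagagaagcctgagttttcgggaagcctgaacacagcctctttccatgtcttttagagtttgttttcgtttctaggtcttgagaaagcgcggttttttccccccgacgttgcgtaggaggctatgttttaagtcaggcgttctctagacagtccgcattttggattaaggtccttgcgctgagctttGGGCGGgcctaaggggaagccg
Cox6a1: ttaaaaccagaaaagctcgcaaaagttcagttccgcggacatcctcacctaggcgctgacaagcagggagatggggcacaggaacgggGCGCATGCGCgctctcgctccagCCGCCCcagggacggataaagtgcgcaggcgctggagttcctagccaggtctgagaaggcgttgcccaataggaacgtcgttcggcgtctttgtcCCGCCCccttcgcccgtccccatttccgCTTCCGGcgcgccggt
Atp5h: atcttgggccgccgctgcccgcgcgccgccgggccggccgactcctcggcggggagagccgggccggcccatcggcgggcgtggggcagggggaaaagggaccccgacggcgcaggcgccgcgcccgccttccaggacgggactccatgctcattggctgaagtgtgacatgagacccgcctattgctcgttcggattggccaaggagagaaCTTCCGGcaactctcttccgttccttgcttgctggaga
The Ndufaf8 window holds an ETS string that begins 8 bases before the start, and an SP1 string at 166 bases. In Cox6a1 the NRF1 string lies at 162 bases and the ETS string at 16 bases before the start. The single motif in Atp5h, an ETS string on the opposite strand, lies at 38 bases. Cox7a2l holds an SP1 string at 22 bases and none of the other motifs, and the table's coordinates for that gene begin upstream of this RefSeq start, so other starts of the gene were not covered.

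Complex II, succinate dehydrogenase, is coded wholly in the nucleus and also belongs to the TCA cycle. Its median log2 fold change of 0.02 was the nearest to 0 of the complexes over all 6 libraries, and 0 of its 4 genes were called by edgeR or DESeq2, with 1 lower at an unadjusted p under 0.05. The 4 genes had a median transcript length of 2065.5 nt, and their median log2 fold change was -0.11 with MA-10 replicate 1 alone. The flavoprotein gene Sdha was at 373, 476 and 336 CPM in MA-10 and 369, 369 and 370.1 CPM in STARKO1 cells, which lay within the MA-10 range (log2 fold change -0.10 ± 0.202, edgeR adjusted p = 0.737). Sdhb, the iron-sulfur subunit, was at 158, 196 and 155 CPM against 129, 124 and 130.3 CPM, without overlap, and was not called (-0.41 ± 0.167, edgeR adjusted p = 0.124). The membrane anchors Sdhc and Sdhd ran the other way in MA-10 replicates 2 and 3. Sdhc was at 125, 84.7 and 87.0 CPM in MA-10 and 106, 107 and 112 CPM in STARKO1 cells. Sdhd was at 55.3, 36.3 and 32.8 CPM against 59.2, 61.8 and 54.8 CPM. Neither was called over all libraries (log2 fold changes 0.13 and 0.50, edgeR adjusted p = 0.632 and 0.155), and the signs of Sdha and Sdhb turned under scaling by library size alone (0.37 and 0.05).

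The genes of complex III had log2 fold changes from -3.12 to 0.23. Cyc1, cytochrome c1, was at 0.23, the Rieske iron-sulfur protein gene Uqcrfs1 at -0.02, and the core protein genes Uqcrc2 and Uqcrc1 at -0.05 and -0.50. Uqcrc1 was nonetheless higher in MA-10 replicates 2 and 3 (309 and 232 CPM) than in replicate 1 (133 CPM) and STARKO1 (155 to 165 CPM). The supernumerary subunits Uqcrh, Uqcrq, Uqcr11, Uqcr10 and Uqcrb were at -1.17, -1.92, -2.23, -2.59 and -3.12. None was called (edgeR adjusted p from 0.0623 to 0.944 over the 9 genes), while 5 were lower and 0 higher at an unadjusted p under 0.05, and DESeq2 called 4 lower. Uqcrb was at 196, 2998 and 2015 CPM in MA-10 and 200, 202 and 198 CPM in STARKO1 cells. Its whole fold change thus came from MA-10 replicates 2 and 3, and with replicate 1 alone it was 0.03 on the log2 scale. Uqcrq was at 198, 963 and 642 CPM against 158, 156 and 162 CPM, with every MA-10 library higher, and its log2 fold change was -1.92 ± 0.526 (edgeR adjusted p = 0.0623). Cycs, the carrier cytochrome c, was at 66.7, 371 and 221 CPM against 92.7, 91.4 and 90.0 CPM. MA-10 replicate 1 lay below STARKO1 and the other MA-10 replicates above, with a log2 fold change of -1.26 ± 0.544 (edgeR adjusted p = 0.139) that turned to 0.46 with MA-10 replicate 1 alone.

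Complex IV, cytochrome c oxidase, held the other 2 genes that edgeR called lower, and all 14 of its tested genes had a fold change below 0 (median -1.72). DESeq2 called 11 lower, and 12 were lower and 0 higher at an unadjusted p under 0.05. Cox7a2l codes for a factor that joins complexes III and IV into supercomplexes. It was at 113, 129 and 108 CPM in MA-10 and 72.3, 69.6 and 60.7 CPM in STARKO1 cells. All 3 MA-10 libraries were close together and above all STARKO1 libraries, unlike most of these genes. Its log2 fold change was -0.79 ± 0.160 (edgeR adjusted p = 0.0339), and it was -0.73 with MA-10 replicate 1 alone and -0.72 without it (edgeR adjusted p = 0.00126). The call was lost without any 1 of the other libraries, with an adjusted p of 0.0559 without MA-10 replicate 2, 0.0928 without MA-10 replicate 3 and 0.168 to 0.196 without each STARKO1 replicate. With offsets for transcript length the fold change was -0.34 (adjusted p = 0.275), and with library size scaling it was -0.34 (adjusted p = 0.334). The gene lies at chr17:83501918-83517331 on the minus strand (mm10).

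Cox6a2, the heart and skeletal muscle isoform of subunit VIa, had 15, 38 and 19 counts in MA-10 and 1, 1 and 3 counts in STARKO1 libraries. It lies at chr7:128205435-128206388 on the minus strand. Since STARKO1 was at the floor, it was at least 11.0-fold lower there, against a floor of 3 counts per library (edgeR adjusted p = 0.0226). That bound was 7.16-fold without MA-10 replicate 2 and 4.86-fold with MA-10 replicate 1 alone. The call was kept without MA-10 replicate 1 or 2 (0.000233 and 0.0422) and lost without MA-10 replicate 3 (0.0870) or STARKO1 replicate 1, 2 or 3 (0.124, 0.119 and 0.0882). Its ubiquitous partner Cox6a1 was at 165, 563 and 344 CPM against 127, 123 and 124 CPM (log2 fold change -1.51, edgeR adjusted p = 0.0627), and per length Cox6a2 made up 0.406% to 0.490% of the pair in MA-10 and 0.0283% to 0.114% in STARKO1 cells. The transcript of the muscle isoform was therefore a small share of the pair in every library.

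In the other isoform sets of complex IV, edgeR called 0 genes besides Cox7a2l, while DESeq2 called Cox7a2, Cox6b1, Cox8a and Ndufa4 lower (adjusted p = 0.0306, 0.0055, 0.00311 and 0.0157). Cox7a1, the muscle isoform of subunit VIIa, was at 3.04, 68.9 and 30.9 CPM in MA-10 and 9.29, 9.96 and 8.99 CPM in STARKO1 cells. MA-10 replicate 1 lay below and the other MA-10 replicates above all STARKO1 libraries, so the log2 fold change was -1.86 over all libraries and 1.63 with replicate 1 alone. Per length, Cox7a1 was 10.9%, 54.3% and 42.9% of Cox7a1 and Cox7a2 together in the MA-10 replicates and 29.6% to 32.0% in the STARKO1 replicates. Cox7a2, its liver-type partner, was at 41.7, 97.1 and 68.9 CPM against 36.9, 35.6 and 35.8 CPM (edgeR adjusted p = 0.0791). Cox4i1, the ubiquitous isoform of subunit IV, was at 317, 898 and 636 CPM against 330, 336 and 331 CPM (log2 fold change -0.89, edgeR adjusted p = 0.129). Cox6b1 and Cox8a were higher in all MA-10 libraries than in all STARKO1 libraries, with log2 fold changes of -1.68 and -2.25 (edgeR adjusted p = 0.0650 and 0.0687). Ndufa4 was at 27.3, 177 and 110.5 CPM against 31.0, 31.1 and 31.3 CPM. Ndufa4l2, its hypoxia-inducible paralog, had only 3, 8 and 10 counts in MA-10 and 1, 1 and 2 in STARKO1 libraries and was not tested. It was at least 3.29-fold lower against the floor of 3 counts per library, a bound that came from MA-10 replicates 2 and 3, since replicate 1 was itself at the floor. Cox4i2, Cox6b2, Cox8b and Cox8c had no protein-coding row in the deposited counts, where the lowest total of any gene over the libraries was 10.

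Cox6c, a small subunit of complex IV, was among the 3 highest of these genes per length, along with Atp5h and Uqcrb, when the means of both cell lines were averaged. In STARKO1 cells alone, Ndufb9, Atp5b and Atp5g3 (744, 650 and 588 CPM per kb) were above Cox6c, Atp5h and Uqcrb (550, 527 and 374 CPM per kb). It was at 402, 4699.5 and 3907 CPM in MA-10 and 386, 419 and 414 CPM in STARKO1 cells. Its level in MA-10 replicate 1 lay within the STARKO1 range, and its log2 fold change was -2.89 ± 0.810 (edgeR adjusted p = 0.0643) over all libraries and 0.02 with that replicate alone. Cox4i1 overlaps Emc8, Cox6c overlaps Vps13b and Ndufa4l2 overlaps Shmt2, each on the opposite strand.

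**Figure D3:**
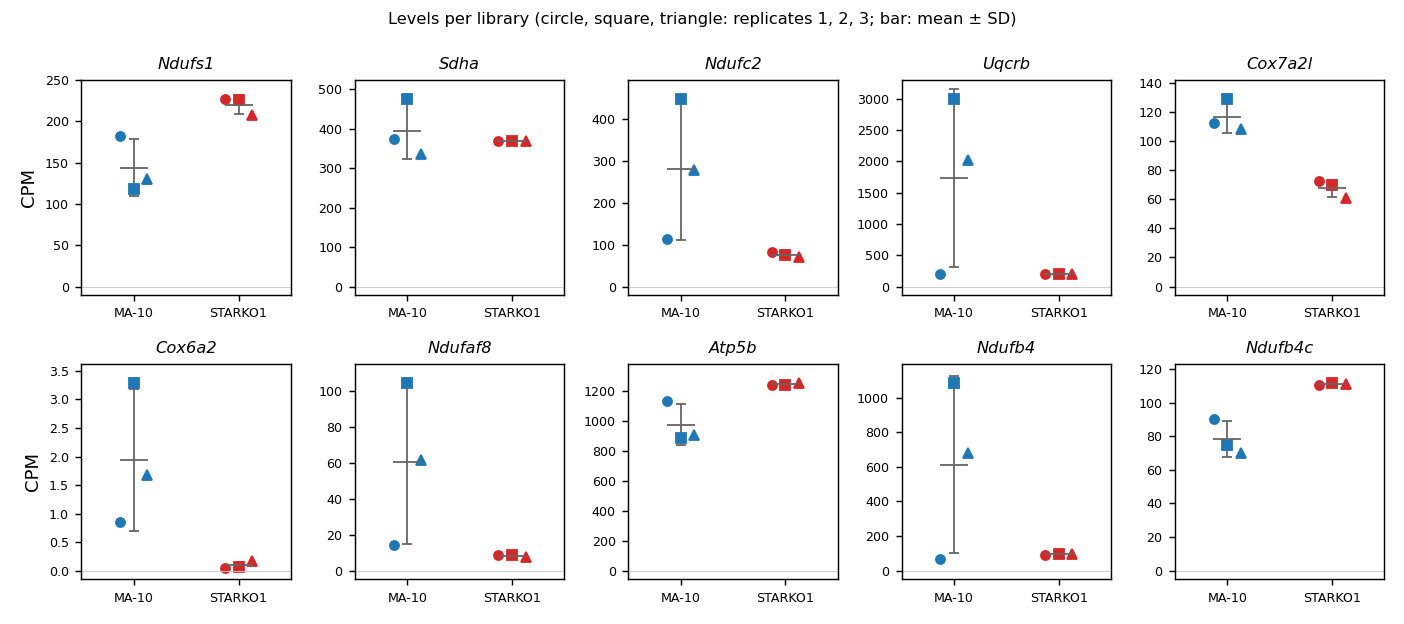
CPM (y axis, starting near 0 in each panel) of 10 genes in the 3 MA-10 (blue) and 3 STARKO1 (red) libraries, with circles, squares and triangles for replicates 1, 2 and 3 and bars for the mean ± SD. In Ndufc2, Uqcrb, Ndufaf8 and Ndufb4 MA-10 replicate 2 is the highest library and replicate 1 is near STARKO1, whereas the 3 MA-10 libraries of Cox7a2l lie together above STARKO1, and Ndufs1, Atp5b and Ndufb4c are lower in all MA-10 libraries than in STARKO1.

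Complex V, the ATP synthase, joins a catalytic F1 head to a membrane rotor and stator. None of its 17 genes was called over all libraries, and the median log2 fold change was -1.14. At an unadjusted p under 0.05, 9 were lower and 0 higher, and DESeq2 called 9 lower. The alpha and beta subunits of the F1 head were abundant and had fold changes above 0. Atp5b, the beta subunit, was at 1134, 887 and 904 CPM in MA-10 and 1239, 1241 and 1256 CPM in STARKO1 cells, where every library was higher (log2 fold change 0.35, edgeR adjusted p = 0.257). Atp5a1, the alpha subunit, was at 855, 1246 and 928 CPM against 1147, 1175 and 1176 CPM (0.21, edgeR adjusted p = 0.526). Subunits of the stalks and the membrane part ran from Atp5f1, at 0.19, and Atp5o, at 0.00, to Atp5mpl, at -3.64. Atp5h, subunit d of the peripheral stalk, was at 446, 4019 and 3076 CPM in MA-10 and 337, 373 and 367 CPM in STARKO1 cells, with no overlap (log2 fold change -2.81 ± 0.733, edgeR adjusted p = 0.0590), and its log2 fold change was -0.31 with MA-10 replicate 1 alone. Atp5mpl, a small proteolipid, was at 115, 2784 and 1441 CPM against 104, 125 and 118 CPM (-3.64 ± 0.991, edgeR adjusted p = 0.0618), with MA-10 replicate 1 inside the STARKO1 range. Atp5md, Atp5k, Atp5j, Atp5j2 and Atp5e ranged from -2.88 to -1.86.

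The 3 genes for subunit c, which forms the rotor ring, code for the same mature peptide. Atp5g3 was at 327, 623 and 499 CPM in MA-10 and 433, 392 and 449 CPM in STARKO1 cells, Atp5g2 was at 105, 328 and 198 CPM against 92.6, 100.2 and 93.5 CPM, and Atp5g1 was at 44.1, 81.7 and 67.6 CPM against 46.5, 46.6 and 53.6 CPM. Their log2 fold changes were -0.18, -1.14 and -0.40, and none was called (edgeR adjusted p = 0.628, 0.0886 and 0.259). The signs of Atp5g1 and Atp5g3 turned under library size scaling (0.12 and 0.34). Per length, Atp5g3 was the highest of the 3, and Atp5g2 made up 24.1%, 34.2% and 28.2% of the pair with Atp5g3 in the MA-10 replicates and 17.1% to 20.2% in the STARKO1 replicates.

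The oxidative phosphorylation genes have short transcripts, and their fold changes followed transcript length. Their median length was 908 nt, against 2592 nt over all genes and 2939 nt over protein-coding genes. The 48 genes under 1000 nt had a median log2 fold change of -1.73, the 30 from 1000 to 2000 nt -0.56 and the 10 of at least 2000 nt -0.25. Over all genes tested, the same classes had medians of -0.55, -0.28 and 0.04. Across the 88 tested genes with a length, the log2 of the length and the log2 fold change had a Pearson r of 0.544 and a Spearman rho of 0.565, against 0.195 and 0.213 across 11884 genes. These genes share the 6 libraries and are not independent. With MA-10 replicate 1 alone the classes of the oxidative phosphorylation genes had medians of 0.05, 0.08 and 0.21, and r was 0.078. When a smooth trend of counts on length was removed per library, the median log2 fold change was -0.69, with 3 genes called lower (Cox6a2, Ndufaf8 and Ndufc2) and 1 higher, Atp5o, which codes for a peripheral stalk subunit and was named after its values were seen. Of all genes, 6.15% were lower and 5.72% higher in that fit, against 3.41% and 1.14% of the oxidative phosphorylation genes. The within-class medians of the short genes were then -0.996 for oxidative phosphorylation and 0.03 for all genes. Atp5o, with a transcript of 838 nt, has coordinates from 91684398 to 91931688 on chromosome 16. That span overlaps Cryzl1 and Donson on the same strand and Itsn1 and Gm10785 on the opposite strand. How far their reads entered its counts was not tested.

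**Figure D4:**
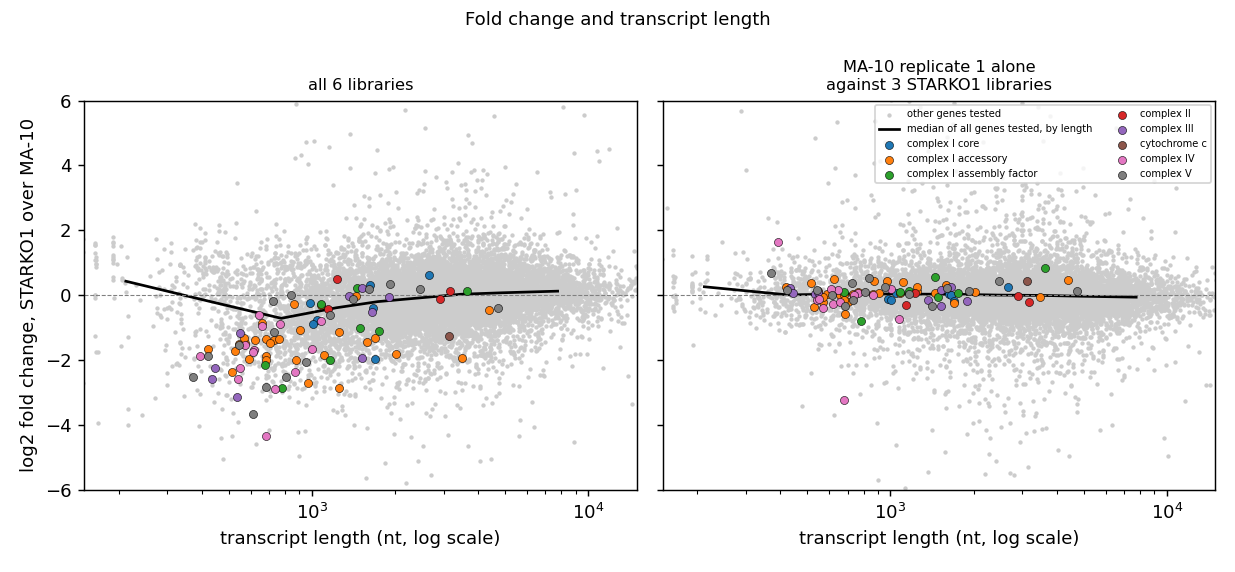
Log2 fold change, STARKO1 over MA-10 (y axis), against transcript length in nt (x axis, log scale) for all 6 libraries (left) and for MA-10 replicate 1 alone against STARKO1 (right), with the oxidative phosphorylation genes colored by complex, other genes in grey and the median of all genes by length as a black line; points beyond the axes are not drawn. On the left the colored points under 1000 nt lie mostly below the black line, with a median of -1.73, and on the right they lie around 0, with a median of 0.05.

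Of 41 tested assembly factors of the complexes that the symbol rule does not include, edgeR called 1 lower and 0 higher (median log2 fold change -0.43). DESeq2 called 13 lower, where 17.4% of all genes were called lower. At an unadjusted p under 0.05, 17 were lower and 2 higher, where 22.7% of all genes were lower and 15.0% higher. The gene called by edgeR was Nubpl, an iron-sulfur cluster assembly protein for complex I, at 7.22, 8.59 and 8.10 CPM in MA-10 and 4.43, 4.36 and 3.54 CPM in STARKO1 cells. All MA-10 libraries were close together and higher (log2 fold change -0.95 ± 0.195, edgeR adjusted p = 0.0350), as they were for Cox7a2l, and with MA-10 replicate 1 alone the value was -0.80. The call was lost without MA-10 replicate 2 or 3 (0.0675 and 0.114) or any STARKO1 replicate (0.157 to 0.185). Of 13 subunits coded by the mitochondrial genome, 12 were lower at an unadjusted p under 0.05, 10 with DESeq2 and 1 with edgeR, mt-Nd6 (-3.63, edgeR adjusted p = 0.0446), whose gene overlaps mt-Nd5 on the opposite strand, and with MA-10 replicate 1 alone it was at -0.86. That call was lost without MA-10 replicate 2 or 3 (0.0912 and 0.144) or any STARKO1 replicate (0.175 to 0.193). All 13 had fold changes below 0, with a median of -1.28 that was -0.15 with MA-10 replicate 1 alone. Their share of the counts was 0.679%, 1.25% and 1.16% in the MA-10 replicates and 0.588% to 0.645% in STARKO1.

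None of 14 TCA cycle enzyme genes was called by edgeR (median log2 fold change -0.16). At an unadjusted p under 0.05, 3 were lower and 1 higher, where 22.7% of all genes were lower and 15.0% higher. DESeq2 called 3 lower and 0 higher, where 17.4% of all genes were called lower and 11.0% higher. Sucla2, a succinyl-CoA synthetase subunit, had the smallest p (-0.74 ± 0.242, edgeR adjusted p = 0.0819). The TCA cycle genes have a median transcript length of 2474 nt, and their summed level was 2789, 3262 and 3173 CPM in MA-10 and 2670 to 2729 CPM in STARKO1 cells. Of 16 regulators of mitochondrial gene expression, 0 were called in either direction by edgeR (median 0.15), 4 were lower and 3 higher at an unadjusted p under 0.05, and DESeq2 called 2 lower and 2 higher. The shares over all genes were those given for the TCA cycle genes. Gabpa, which codes for the DNA-binding subunit of the ETS factor GABP, had their smallest p, at 114, 315 and 272 CPM in MA-10 and 90.5, 93.8 and 87.0 CPM in STARKO1 cells (-1.37 ± 0.366, edgeR adjusted p = 0.0604). Gabpa overlaps Atp5j, a complex V gene, on the opposite strand, from 84834925 to 84835626 on chromosome 16. Without a known strand setting, reads in that shared stretch cannot be told apart. Pprc1, in the same list of regulators, ran the other way without overlap (1.22 ± 0.336, edgeR adjusted p = 0.0623). It was at 28.6, 10.9 and 19.2 CPM in MA-10 and 42.4, 43.7 and 51.5 CPM in STARKO1 cells. DESeq2 called Gabpa and Yy1 lower (adjusted p = 0.00514 and 0.0150) and Pprc1 and Tfb2m higher (adjusted p = 0.00681 and 0.0138). Nrf1 was at 38.8, 30.1 and 30.0 CPM against 36.3, 33.8 and 34.3 CPM (0.08, edgeR adjusted p = 0.748), and Tfam, the mitochondrial transcription factor, was at 57.3, 65.7 and 62.8 CPM against 75.5, 75.6 and 75.5 CPM (0.29, edgeR adjusted p = 0.177).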

How the data were processed

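RNA sequencing of 3 MA-10 and 3 STARKO1 libraries was analysed, each made from total RNA (stranded Takara SMARTer Total RNA Pico V2). The authors deposited estimated counts per gene, unscaled and with replicates kept apart. Submitters' notes name STAR 2.6.1d, Partek and mm10 without their roles. The counting program and its strand setting are not given in the sources used here. Estimated counts were rounded and compared in R 4.3.3 with edgeR 4.0.16 (filterByExpr, TMM scaling, quasi-likelihood test, Benjamini-Hochberg adjustment, called under 0.05). DESeq2 1.42.0 and other settings were alternatives, and tables and figures were made with Python 3.11.15. The fits were also run on simulated counts that varied less than these data. Where a length trend was added, it was in every MA-10 library. That run therefore does not show how the fits perform on these data.

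Groups came from the labels. The labels do not say whether the libraries came from separate cultures. The study's general statement that data come from independent experiments does not name the sequencing. If the libraries are technical repeats, p-values measure only technical spread. The common biological coefficient of variation was 0.291. Transcript lengths came from the principal transcript in GENCODE vM21, or the longest protein-coding one, and promoter windows from RefSeq (GRCm38.p6). Smooth trends on length or GC content used a lowess span of 0.3.

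Named genes are Star, all of complex II, cytochrome c and isoform sets, genes called or, without a call, those of smallest p in each complex or list, and the 3 highest per length. Other genes were named after their values were seen. The values of 1 gene are not reported here. The symbol rule uses no measured value, but the members and gene lists were chosen with earlier results of these data known.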

Additional observations from a re-analysis of the deposited data

How the results depend on the processing

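The number of oxidative phosphorylation genes called lower in STARKO1 was 3 and depended on most choices. It was 50 with DESeq2, 14 with MA-10 replicate 1 alone, 1 with library size scaling, 1 with at least 10 counts in every library, and between 0 and 69 when each replicate was left out in turn. The number called higher, 0 in the analysis as reported, was 1 with DESeq2, 1 with gene length offsets, 20 with MA-10 replicate 1 alone, and between 0 and 6 when each replicate was left out. The median log2 fold change, -1.35, was 0.076 with MA-10 replicate 1 alone. Library size scaling raised the median of all genes to 0.38 and that of the oxidative phosphorylation genes to -0.73. The share of all genes called lower also moved with these choices. It was 4.74% as reported, 17.4% with DESeq2, 1.01% with library size scaling and 3.23% with at least 10 counts in every library. The shares of the oxidative phosphorylation genes in these fits were 3.37%, 56.2%, 1.12% and 1.14%. When each replicate was left out, 0.32% to 31.7% of all genes were called lower.

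Same-numbered MA-10 and STARKO1 libraries hardly deviated together (correlations -0.02, 0.05 and 0.02 over 11939 genes). The labels do not say whether the numbers pair the samples, and low correlations cannot settle it. With the replicate block, 1 gene was lower, Cox6a2, and 0 were higher. With gene length offsets with replicate block, 0 were lower and the median was -0.62. Over all genes edgeR called 566 lower and 513 higher, and 128 and 106 with the block.

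Among named genes, signs turned with MA-10 replicate 1 alone for Cycs (0.46), Sdhc (-0.20), Cox4i1 (0.071), Cox7a1 (1.63), Ndufa4 (0.19), Atp5g1 (0.15), Atp5g3 (0.38), Uqcrb (0.031), Atp5mpl (0.014) and Cox6c (0.016). Sdha turned with upper quartile scaling (0.057) and library size scaling (0.37), and ran from -0.20 to 0.058 when each replicate was left out. Sdhb turned with library size scaling (0.054) and gene length offsets (0.018, and 0.041 with the block), Atp5g1 with library size scaling (0.12), and Atp5g3 with library size scaling (0.34) and gene length offsets (0.44 with and without the block), with a range of -0.31 to 0.041 when each replicate was left out. The cause of these changes was not tested. Of 479 values of named genes under alternatives, 369 kept direction and side of the threshold. Depth limits Cox6a2 and Ndufa4l2, whose STARKO1 libraries held no more than 3 counts each.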
